A study of Mus musculus with 5 samples.

Results

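The 10 genes described here were Yap1, Wwtr1, Tead1, Ccn1, Ccn2, Ankrd1, Amotl2, Sox4, Sox9 and Anxa2, chosen by symbol from the 32285 genes that each count matrix lists. They make up 3 effectors of the Hippo pathway (Yap1, Wwtr1, Tead1), 4 genes commonly used as readouts of YAP activity (Ccn1, Ccn2, Ankrd1, Amotl2) and 3 genes linked to a ductal or progenitor-like state of hepatocytes (Sox4, Sox9, Anxa2). All 10 were listed in all 5 libraries. Unique molecular identifiers (UMIs, counts of distinct RNA molecules) of each gene were summed per library over hepatocyte, cholangiocyte, stellate and endothelial nuclei and are given as counts per 1000000 UMIs of those nuclei (CPM).

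Single-nucleus RNA was profiled in livers of wild-type male C57BL6/J mice that were kept for 5 months, from 10 to 12 weeks of age, on regular chow (3 libraries, n = 3) or on a diet rich in fat (40 kcal%) with added fructose (20 kcal%) and cholesterol (2%; 2 libraries, n = 2), which brings on metabolic dysfunction-associated steatohepatitis (MASH). Nuclei came from snap-frozen tissue and were sorted before capture, and no other genotype or agent was used. Whether a library held 1 mouse or a pool is not stated, so p-values measure only the spread between libraries, which may be in part technical. The comparisons ask in which cell types, lobular zones and individual nuclei the YAP axis and the ductal genes were higher in MASH.

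YAP (Yap1) and TAZ (Wwtr1) are transcriptional coactivators that the kinases of the Hippo pathway, MST and LATS, hold in the cytoplasm by phosphorylation. When that restraint is low they enter the nucleus and, bound to TEAD factors such as TEAD1, switch on genes for matricellular proteins (Ccn1, Ccn2), a nuclear ankyrin-repeat protein (Ankrd1) and feedback regulators of the pathway itself (Amotl2). In the liver this axis is known for control of organ size and for the ductal character of biliary cells, and forced YAP activity can move hepatocytes towards a biliary progenitor state that includes Sox9. Because YAP is regulated mainly after translation, the RNA of Yap1 itself need not follow its activity.

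The promoters of the target genes are shown because TEAD factors read a short motif there. The 250 bases before the annotated start were taken from RefSeq (GRCm38.p6) and searched on both strands for GGAATG or its reverse complement CATTCC, the core of the TEAD motif, which is in capitals below, with position -1 the base before the start. Of the 10 genes, 7 had a promoter in the table used (not Tead1, Ccn2 and Sox9), and 6 of those 7 held the motif (not Anxa2), against 12.6% of all 32851 promoter windows and 14.4% of 27025 genes with any window. Ccn1 (chr3:145649986-145650235, minus strand) held it at -103 to -98, Ankrd1 (chr19:36119845-36120094, minus strand) at -210 to -205 and -123 to -118, Amotl2 (chr9:102717554-102717803, plus strand) at -65 to -60 and Sox4 (chr13:28953700-28953949, minus strand) at -168 to -163.
Ccn1: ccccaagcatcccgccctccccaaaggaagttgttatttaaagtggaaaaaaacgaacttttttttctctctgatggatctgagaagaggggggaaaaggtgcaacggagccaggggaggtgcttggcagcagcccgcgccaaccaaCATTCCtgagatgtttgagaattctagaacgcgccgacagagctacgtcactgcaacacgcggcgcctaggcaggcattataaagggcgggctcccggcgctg
Ankrd1: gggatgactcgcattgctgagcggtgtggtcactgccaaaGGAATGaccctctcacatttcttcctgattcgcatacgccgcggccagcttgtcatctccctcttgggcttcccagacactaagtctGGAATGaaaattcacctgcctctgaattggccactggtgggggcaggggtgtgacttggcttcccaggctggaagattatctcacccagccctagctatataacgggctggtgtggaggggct
Amotl2: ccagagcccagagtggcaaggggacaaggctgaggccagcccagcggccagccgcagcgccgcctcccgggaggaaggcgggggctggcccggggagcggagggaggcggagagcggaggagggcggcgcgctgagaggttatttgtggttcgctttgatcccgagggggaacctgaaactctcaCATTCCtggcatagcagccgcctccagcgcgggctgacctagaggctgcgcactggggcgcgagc
Sox4: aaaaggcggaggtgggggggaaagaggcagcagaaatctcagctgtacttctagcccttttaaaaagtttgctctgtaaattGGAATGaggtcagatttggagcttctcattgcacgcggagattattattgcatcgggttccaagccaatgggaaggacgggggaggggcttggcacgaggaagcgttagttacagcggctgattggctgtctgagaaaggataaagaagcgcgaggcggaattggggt
Yap1 held the motif at -141 to -136 and Wwtr1 at -136 to -131. Among other listed genes the motif stood before 7 of 18 Hippo pathway genes, 2 of 10 further YAP target genes and 1 of 13 ductal genes. It also stood before 3 of 10 Sox and annexin genes and 1 of 5 genes listed for disease-associated or MASH hepatocytes. A match describes these letters and is no evidence of binding.

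The libraries held 8633 to 12935 barcodes, of which 7969 to 11574 nuclei were kept, and any pair of libraries shared 23 to 48 barcodes. Of the kept nuclei, 2856 to 6753 per library passed no gate, the most in MASH replicate 1. The median mitochondrial share per barcode was 7.42% in MASH replicate 1, 0.892% in MASH replicate 2 and 1.15% to 3.55% in chow. A limit of 5% left 1556 of the 1995 hepatocyte nuclei of MASH replicate 1. Hepatocyte nuclei (at least 2000 UMIs and at least 1 UMI of Hnf4a) numbered 3481, 5593 and 5978 in chow and 1995 and 1848 in MASH, at median depths of 3813 to 5182 UMIs. The other classes were shallower (medians of 944 to 1756 UMIs), and cholangiocyte nuclei numbered 9, 3 and 10 in chow against 120 and 606 in MASH. The classes carried their defining markers, and 6 cholangiocyte markers summed to 191 and 378 CPM in MASH cholangiocyte nuclei and 24.0 and 29.7 CPM in MASH hepatocyte nuclei. RNA of hepatocytes was present in every class, since Alb reached 1813 to 4766 CPM in the non-hepatocyte classes of MASH against 1294 and 2077 CPM in hepatocyte nuclei. In the other direction, 5 stellate markers summed to 3.08 to 4.27 CPM in chow and 27.3 to 36.0 CPM in MASH hepatocyte nuclei. A list of 4 lymphocyte markers summed to 3.08 to 5.004 and 21.5 to 22.3 CPM. Most of that was Ptprc (2.72 to 4.33 and 19.1 to 20.5 CPM), which is not particular to lymphocytes. Macrophage nuclei of MASH held it at 776 to 1130 CPM. The part of such stray RNA in the results below was not tested beyond the alternatives named.

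In hepatocyte nuclei, 5 of the 10 genes were higher in MASH: Sox4, Anxa2, Ccn2, Ccn1 and Wwtr1, the gene for TAZ. Yap1, Tead1, Amotl2 and Sox9 did not pass the test, and Ankrd1 was close to absent. Across all 14244 genes tested by edgeR's quasi-likelihood test (adjusted p under 0.05, Benjamini-Hochberg), 12.3% were called in either direction and 8.05% were called higher in MASH. Fold changes are given after TMM scaling, which lowered every MASH to chow difference in hepatocyte nuclei by 0.32 on the log2 scale relative to plain CPM, and they place the median gene at -0.03. After TMM the calls split into 1146 genes that rose and 608 that fell. With plain library totals, an alternative added after seeing the data, they split into 1400 and 324, with the median gene at 0.27. The same 5 of the 10 genes were called under both. The plot of levels by class shows each library.

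**Figure D1:**
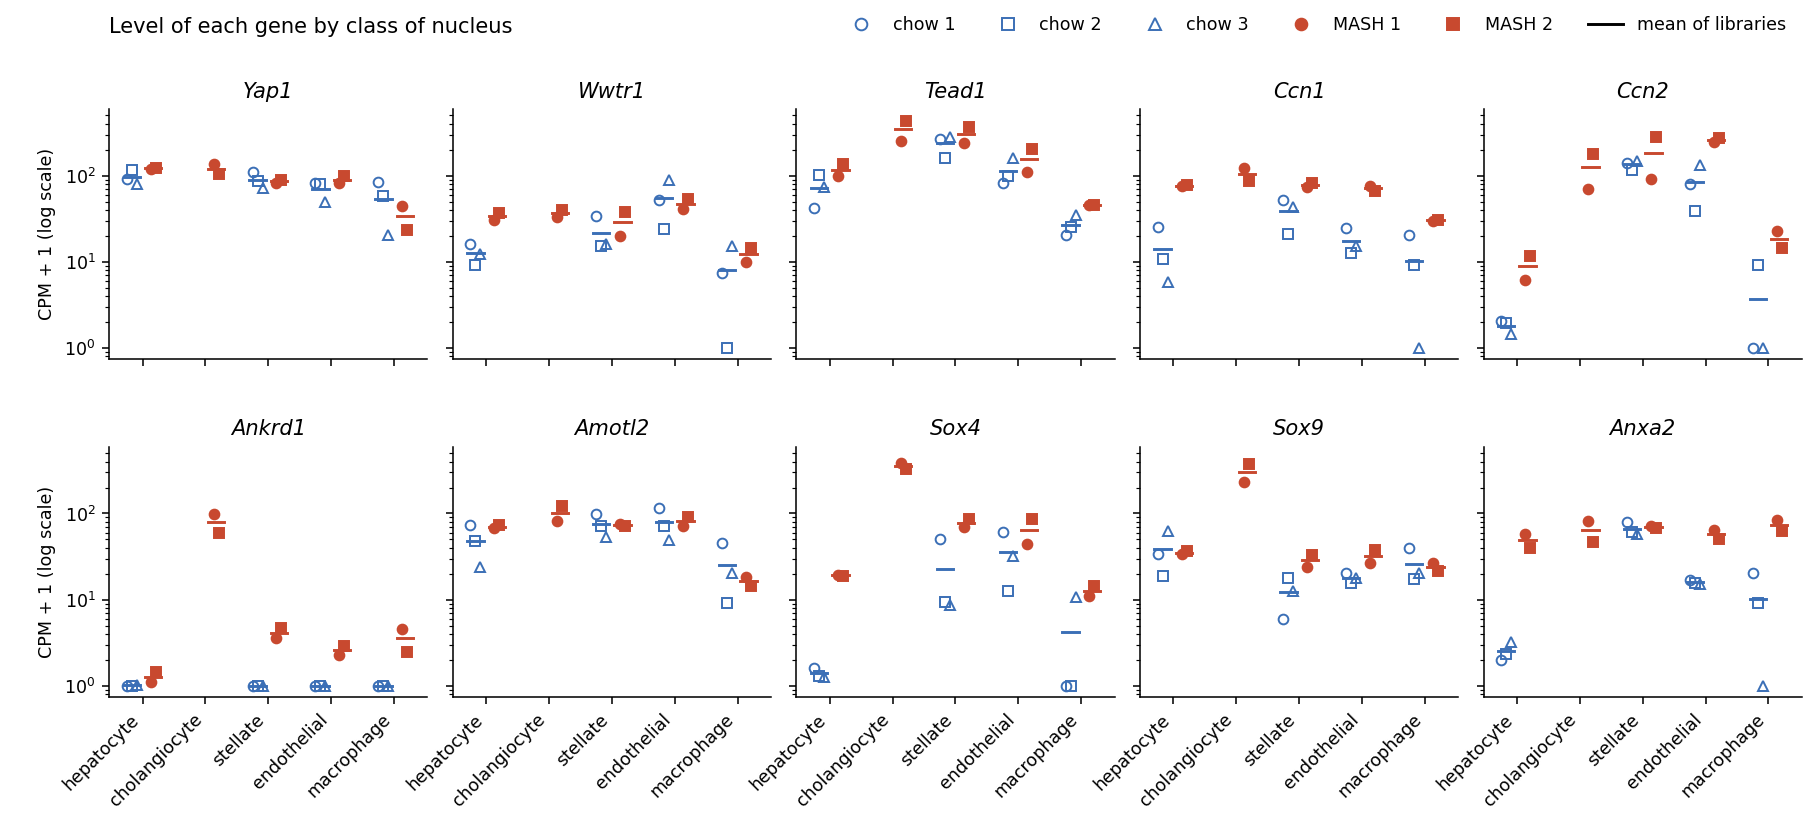
Level of each of the 10 genes (CPM, log axis) in every library, by class of nuclei, with a point for each of the 3 chow and 2 MASH libraries. Sox4 in hepatocyte nuclei sits between 0.28 and 0.62 CPM in chow and at 17.9 and 18.3 CPM in MASH, while Yap1 lies between 78.2 and 122 CPM in all 5 libraries.

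Among the effectors, Yap1 (ENSMUSG00000053110, chr9:7931999-8004596) was read at 91.6, 115 and 78.2 CPM in the chow libraries and at 119.9 and 122 CPM in the MASH libraries. The MASH libraries were the higher ones in plain CPM, and after scaling the log2 difference was 0.04 ± 0.24 (SE, adjusted p = 0.93). Wwtr1 (ENSMUSG00000027803, chr3:57455649-57575910) stood at 15.2, 8.10 and 11.5 CPM in chow and 29.6 and 35.9 CPM in MASH. Its groups did not overlap, and it rose 2.27-fold (log2 1.18 ± 0.30, adjusted p = 0.047 by edgeR). That call was close to the threshold and was lost without chow replicate 1 (log2 1.27, adjusted p = 0.052), chow replicate 2 (0.97, 0.074), MASH replicate 1 (1.26, 0.23) or MASH replicate 2 (1.10, 0.30), and it held in 11 of 18 alternatives in all. Tead1 (ENSMUSG00000055320, chr7:112679318-112906807), the DNA-binding partner, was read at 41.0, 101 and 72.6 CPM in chow and 97.05 and 134 CPM in MASH. Those groups overlapped, and the log2 difference of 0.33 ± 0.42 missed the threshold (adjusted p = 0.63). Tead1 also overlaps Gm44462 on its own strand, so its counts could hold or lose reads of that gene.

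The matricellular genes were the targets that moved. Ccn1 (ENSMUSG00000028195, chr3:145646976-145649981), which encodes CYR61, was at 24.3, 9.72 and 4.81 CPM in chow and 74.6 and 76.7 CPM in MASH. All MASH values lay above all chow values, and it rose 5.06-fold (log2 2.34 ± 0.49, adjusted p = 0.027), a call lost without chow replicate 2 (2.18, adjusted p = 0.089), MASH replicate 1 (2.30, 0.15) or MASH replicate 2 (2.38, 0.15). Ccn2 (ENSMUSG00000019997, chr10:24595442-24598683), which encodes CTGF, was scarce, at 1.07, 0.93 and 0.47 CPM in chow and 5.09 and 10.6 CPM in MASH. It rose 7.82-fold (log2 2.97 ± 0.45, adjusted p = 0.012), and without MASH replicate 2, its highest library, the change was 2.42 (adjusted p = 0.15). Among nuclei with no UMI of any other class's gate genes Ccn1 (2.29, adjusted p = 0.031) and Ccn2 (3.06, 0.015) kept their calls, and Wwtr1 missed the threshold (1.17, 0.060).

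The other pair of targets behaved differently. Amotl2 (ENSMUSG00000032531, chr9:102716672-102733418), an angiomotin that restrains YAP, was at 71.7, 47.3 and 23.2 CPM in chow and 66.8 and 71.7 CPM in MASH, with chow replicate 1 as high as either MASH library. Its log2 difference was 0.30 ± 0.33 (adjusted p = 0.56). Ankrd1 (ENSMUSG00000024803, chr19:36111961-36120099) gave 0, 0 and 1 UMIs in the chow libraries and 1 and 5 UMIs in the MASH libraries, out of 10221847 to 32038009 UMIs per library, and was too low to enter the test.

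Sox4 showed the largest rise of the 9 genes tested. Sox4 (ENSMUSG00000076431, chr13:28948919-28953713), a SoxC transcription factor active in progenitor and biliary cells, gave 11, 7 and 9 UMIs in the chow libraries (0.62, 0.28 and 0.28 CPM) and 187 and 199 UMIs in the MASH libraries (18.3 and 17.9 CPM). The groups lay far apart, and the rise was 38.0-fold (log2 5.25 ± 0.38, adjusted p = 0.0015). It kept its call in 18 of 18 alternatives, with log2 changes of 4.995 to 5.85, including the one limited to nuclei with no UMI of any other class's gate genes (5.19, adjusted p = 0.0031).

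Anxa2 followed the same pattern at higher levels. This gene (ENSMUSG00000032231, chr9:69453620-69491795) encodes a calcium-dependent membrane-binding annexin, and it gave 1.01, 1.34 and 2.18 CPM in chow and 57.0 and 38.7 CPM in MASH. It rose 23.9-fold (log2 4.58 ± 0.48, adjusted p = 0.0041) and was called in 18 of 18 alternatives, with log2 changes of 4.21 to 5.14. Sox9 (ENSMUSG00000000567, chr11:112782224-112787760), the classical ductal and periportal transcription factor, was instead at 32.8, 17.9 and 61.7 CPM in chow and 33.0 and 35.3 CPM in MASH. Both MASH values fell inside the chow range, and the log2 difference of -0.55 ± 0.57 (adjusted p = 0.54) turned to 0.26 without chow replicate 3, the highest library.

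**Figure D2:**
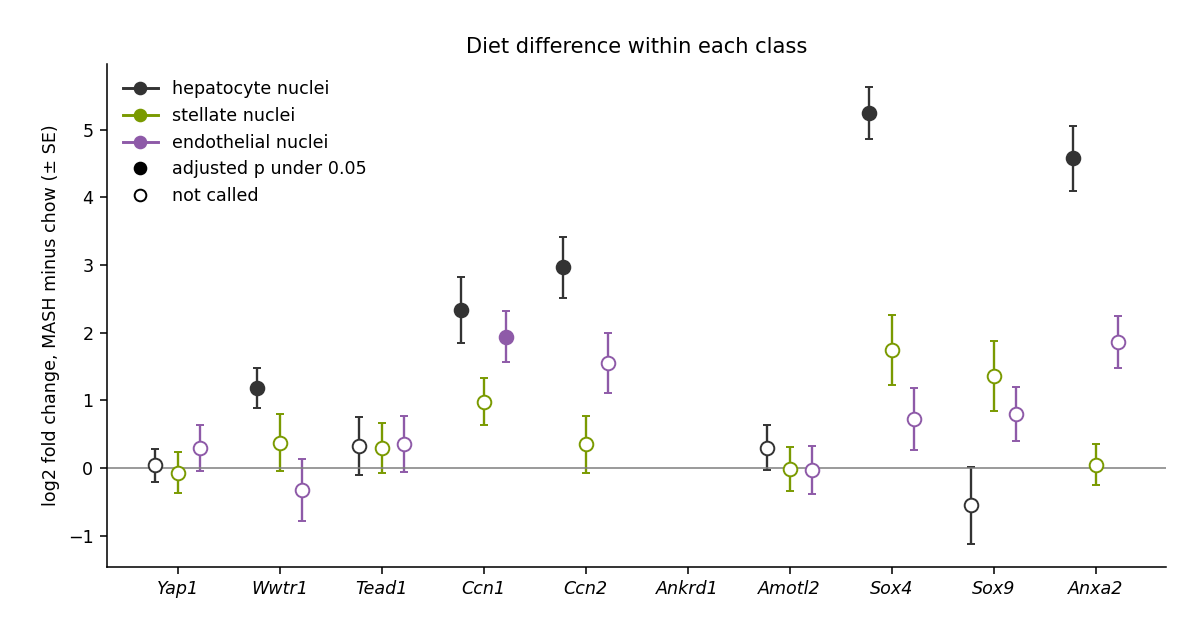
Log2 difference, MASH minus chow, of each gene in hepatocyte, stellate and endothelial nuclei (points) with its standard error (bars), from edgeR fits on sums per library, filled where the adjusted p is under 0.05. In hepatocyte nuclei Sox4 (5.25) and Anxa2 (4.58) lie farthest from 0, and no gene is called in stellate nuclei.

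The share of hepatocyte nuclei with at least 1 UMI gave the same order after every nucleus was thinned to 2000 UMIs. Sox4 was found in 3, 2 and 2 nuclei of the chow libraries (0.052% ± 0.030, SD, n = 3) and in 67 and 57 nuclei of the MASH libraries (3.22% ± 0.19, n = 2). Anxa2 was found in 0.307% ± 0.13 of chow and 8.51% ± 2.93 of MASH nuclei, and Ccn1 in 2.26% ± 1.81 and 10.7% ± 0.23. For these genes, Ccn2 and Wwtr1 the groups did not overlap, at the smallest p that the exact two-sided permutation test over 3 and 2 libraries allows (p = 0.1). Yap1 was found in 16.7% ± 2.99 of chow and 20.5% ± 0.29 of MASH nuclei and Tead1 in 12.4% ± 4.85 and 19.7% ± 3.57. Their groups did not overlap either, but another assignment of the libraries gave a difference at least as large (exact p = 0.2 each). Sox9 was found in 6.24% ± 3.12 of chow and 6.13% ± 1.44 of MASH nuclei (exact p = 1). Unthinned, Sox4 was found in 6.17% and 6.06% of MASH hepatocyte nuclei and Anxa2 in 21.4% and 17.4%. Among nuclei with no UMI of any other class's gate genes, the MASH share at 2000 UMIs was 2.35% ± 0.41 for Sox4. It was 8.97% ± 1.70 for Anxa2 and 9.92% ± 0.68 for Ccn1. Sox4 and Ccn1 were thus lower there than among all MASH hepatocyte nuclei, and Anxa2 was higher.

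Macrophage nuclei gave the reference level for stray RNA, at 1000 UMIs per nucleus, since few of them reach 2000. Sox4 was then found in 1.65% and 1.62% of hepatocyte nuclei of the MASH libraries (Wilson 95% intervals of 1.18% to 2.31% and 1.14% to 2.31%) and in 0.938% and 0.901% of macrophage nuclei (0.401% to 2.18% and 0.307% to 2.61%). The share was the higher one in hepatocyte nuclei in both libraries, but the intervals cover counting over nuclei only and the difference was not tested. Per 1000 nuclei at full depth, Sox4 gave 93.7 and 108 UMIs in hepatocyte nuclei and 16.7 and 21.6 in macrophage nuclei, where median depths were 4736 and 5182 against 1351 and 1366 UMIs. Anxa2 was found at 1000 UMIs in 5.61% and 3.57% of hepatocyte nuclei and 7.88% and 4.80% of macrophage nuclei. Its share in hepatocyte nuclei was thus no higher than in macrophage nuclei, although macrophages are not known to lack this gene.

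Of 20 listed Hippo kinases, adaptors and TEAD partners, 17 were tested in hepatocyte nuclei and only Wwc2, a scaffold that activates LATS kinases, was called (log2 0.87 ± 0.20, adjusted p = 0.038). Their median log2 difference was 0.14, beside -0.03 over all genes. Of 16 further YAP target genes 13 were tested and 5 rose, with a median of 1.01 over the 13. The called ones were Myof (2.94), a membrane-repair ferlin, Tgfb2 (3.38), a TGF-beta ligand, Axl (2.16), a receptor tyrosine kinase, Igfbp3 (1.71), an IGF carrier, and Ccdc80. Myof, Axl and Igfbp3 were at 2.3 to 6.4 CPM in MASH hepatocyte nuclei. In MASH stellate nuclei Igfbp3 was at 257 and 450.2 CPM, and in MASH macrophage nuclei Axl was at 256 and 394 CPM.

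Of 18 ductal genes 10 were tested in hepatocyte nuclei, 6 rose and 1 fell, with a median of 2.61. Bicc1 (4.34), an RNA-binding protein of ciliated ducts, Spp1 (4.11), which encodes osteopontin, Tspan8 (3.82), Pkhd1 (1.94), which encodes the ciliary protein fibrocystin, Epcam and Cd24a were called higher. Onecut1, a hepatobiliary transcription factor, fell by 3.94 on the log2 scale, from 99.4 to 1095 CPM in chow to 42.2 and 46.5 CPM. UMIs per nucleus were also compared, without correction for the greater depth of hepatocyte nuclei. In the MASH libraries Bicc1, Spp1, Epcam, Tspan8 and Cd24a gave 0.76 to 1.32 times as many UMIs per hepatocyte as per macrophage nucleus. Pkhd1 gave 5.24 and 7.46 times as many, Sox4 5.62 and 4.98, Sox9 3.98 and 6.32 and Anxa2 2.1 and 2.37. In CPM Sox4 was closer, at 18.3 and 17.9 in hepatocyte against 9.95 and 13.3 in macrophage nuclei. Bicc1, Spp1, Epcam, Tspan8, Cd24a and Anxa2 were lower in CPM in hepatocyte than in macrophage nuclei of both libraries. What part of each was stray RNA was not tested. Spp1 was also called in stellate (4.95), endothelial (4.89) and macrophage nuclei (3.85). Macrophage nuclei of the MASH libraries held it at 318 and 507 CPM, and what part of that was their own RNA was not tested.

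Of 14 Sox factors, annexins and S100a10, 11 were tested and Anxa3 (3.27) and Anxa5 (2.24) rose, with a median of 0.94. Of 6 genes listed for disease-associated or MASH hepatocytes, Themis (5.17), Nrg1 (4.32) and Gdf15 (1.91) rose. Klf6, Jun and Cdkn1a did not pass the test. The study that reported the data named Sox4 and Anxa2 among the genes enriched in disease-associated hepatocytes. Their rise here is therefore not independent of that result. For Anxa2 the study also reported higher RNA by qPCR and higher protein by immunoblot in MASH liver. Its staining showed ANXA2 in hardly any hepatocytes of chow liver and in midlobular and pericentral hepatocytes of MASH liver. Themis went from 0.8 to 3.8 CPM in chow to 117 and 132 CPM in MASH.

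In stellate nuclei, the matrix-producing cells of the liver, none of the 9 genes tested was called, against 1.18% of all 8841 genes in either direction. Without adjustment 3 passed 0.05: Sox4 (log2 1.75 ± 0.52, adjusted p = 0.17), Ccn1 (0.98 ± 0.35, adjusted p = 0.25) and Sox9 (1.36 ± 0.52, adjusted p = 0.29), and DESeq2 called none of the 9. Sox4 was at 49.2, 8.51 and 7.66 CPM in chow and 69.1 and 84.9 CPM in MASH, and it was called without chow replicate 1, the highest chow library (3.07, adjusted p = 0.011). Anxa2, at 57.5 to 78.8 CPM in chow and 69.7 and 67.1 CPM in MASH, was already as high in chow stellate nuclei as in MASH.

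In endothelial nuclei Ccn1 alone was called, against 0.772% of all 9719 genes. It went from 24.0, 11.6 and 14.4 CPM in chow to 75.1 and 65.5 CPM in MASH (log2 1.94 ± 0.37, adjusted p = 0.040), and the call was lost without chow replicate 1 (2.23, adjusted p = 0.066), chow replicate 2 (1.84, 0.099), MASH replicate 1 (1.74, 0.40) or MASH replicate 2 (2.18, 0.20). Ccn2 was at 78.8, 37.9 and 132 CPM in chow and 245 and 269.7 CPM in MASH, with groups that did not overlap (log2 1.55 ± 0.44, adjusted p = 0.15). Anxa2 was at 14.4 to 15.98 CPM in chow and 63.5 and 50.1 CPM in MASH and did not pass the test (1.86 ± 0.39, adjusted p = 0.054). In macrophage nuclei, the reference class, Anxa2 was at 0 to 19.3 CPM in chow and 83.2 and 60.8 CPM in MASH (3.15 ± 0.76, adjusted p = 0.075).

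The diet difference itself was compared between classes in 1 model with a library block. It was smaller in stellate than in hepatocyte nuclei for 4 of 10 genes, Anxa2, Sox4, Ccn2 and Ccn1, against 4.22% of 12169 genes called in either direction. It was smaller in endothelial than in hepatocyte nuclei for Sox4, Anxa2 and Wwtr1, against 3.92%. These are ratios, and the chow levels of Anxa2, Sox4 and Ccn2 were lower in hepatocyte nuclei than in either other class. In CPM, Sox4 was higher in MASH by 17.7 in hepatocyte, 55.2 in stellate and 29.3 in endothelial nuclei, and Anxa2 by 46.4, 3.13 and 41.8. Anxa2 lay between 38.7 and 83.2 CPM in all 5 classes of the MASH libraries, whereas in chow they ran from 1.01 to 2.18 CPM in hepatocyte to 57.5 to 78.8 CPM in stellate nuclei.

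Cholangiocyte nuclei, the epithelium of the bile ducts, carried the highest levels of several of these genes. In the MASH libraries Sox4 reached 387 and 331 CPM, Sox9 228 and 371 CPM and Tead1 252 and 435 CPM. Against hepatocyte nuclei of the same libraries, 5 of 10 genes were higher, beside 28.8% of 12169 genes called in either direction. They were Ankrd1 (log2 7.84 ± 0.64), Sox4 (4.19 ± 0.26), Ccn2 (3.93 ± 0.37), Sox9 (3.04 ± 0.29) and Tead1 (1.47 ± 0.27), the last lost without MASH replicate 2 (1.25, adjusted p = 0.14). Yap1 (-0.16 ± 0.22), Wwtr1 (0.03 ± 0.33), Ccn1 (0.29 ± 0.29) and Anxa2 (0.23 ± 0.29) were not called between the epithelia.

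Ankrd1 was the target with the widest gap between ducts and hepatocytes. It gave 24 and 61 UMIs in the cholangiocyte nuclei of the MASH libraries and 1 and 5 UMIs in their hepatocyte nuclei, although the hepatocyte sums were larger. The pooled CPM ratio was 236 (95% interval 104 to 660, counting error only). In stellate nuclei Ankrd1 gave 4 and 7 UMIs and in endothelial nuclei 1 and 2, all from MASH libraries.

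Chow cholangiocyte nuclei were too few for a test of diet in this class. The 22 nuclei of the 3 chow libraries, pooled, held 30159 UMIs, among them 7 of Sox4 (232 CPM, exact 95% interval 93.3 to 478), 4 of Sox9 (133 CPM, 36.1 to 339.6), 11 of Ccn2 and 12 of Tead1. Ankrd1, Amotl2, Wwtr1 and Anxa2 gave no UMI, which allows up to 99.5 CPM at 3 UMIs and up to 122 CPM by the exact 95% interval. The pooled MASH levels of Ankrd1 (66.2 CPM), Wwtr1 (38.2 CPM) and Anxa2 (52.2 CPM) lay under both limits, so a difference was not detectable at this depth. That of Amotl2 (114 CPM, exact 95% interval 96.0 to 134) lay above the limit at 3 UMIs and under the exact one, so a difference was not shown either.

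**Figure D3:**
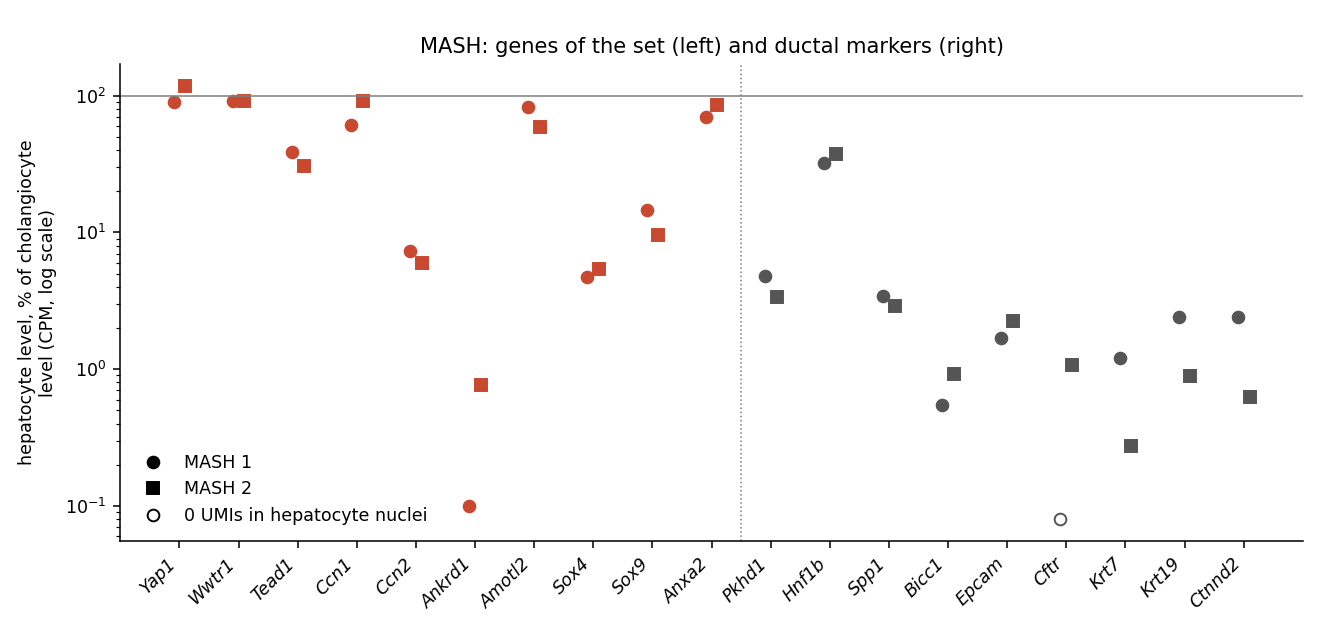
Level in hepatocyte nuclei as a percentage of the level in cholangiocyte nuclei of the same MASH library (log axis), for the 10 genes and for ductal genes. Circles stand for MASH replicate 1 and squares for MASH replicate 2, and the open circle for Cftr, set at the foot of the axis, marks 0 UMIs in hepatocyte nuclei. Yap1 and Wwtr1 lie near 100% (89.3% to 117%), Sox4 at 4.73% and 5.40%, and Bicc1 under 1%.

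Set against the ducts, the level of Sox4 in hepatocyte nuclei was low. Hepatocyte nuclei of MASH replicates 1 and 2 held Sox4 at 4.73% and 5.40% of the cholangiocyte level, close to Pkhd1 (4.83% and 3.37%) and Spp1 (3.45% and 2.92%). Sox9 stood at 14.5% and 9.53%, and Anxa2 at 70.1% and 85.6%. Other ductal markers were lower still, at 0.551% and 0.925% for Bicc1 (which, with Pkhd1, defined the cholangiocyte nuclei and is therefore raised in them), 1.68% and 2.26% for Epcam and 1.202% and 0.274% for Krt7. Ratios that differ this widely between ductal genes were measured in the same nuclei, and what part of each came from duct RNA was not tested.

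Other classes also separated from hepatocyte nuclei. Stellate nuclei of MASH were higher in Ccn2 (log2 4.49), Ankrd1 (3.43), Sox4 (2.12), Tead1 (1.41) and Anxa2 (0.59), which is 5 of 10 genes against 44.3% of all genes called. Endothelial nuclei of MASH were higher in Ccn2 (5.05) and Sox4 (1.71) and lower in Yap1 (-0.54), 3 of 10 against 35.3%. The stellate Ankrd1 call was lost without MASH replicate 1 (2.97, adjusted p = 0.074) or MASH replicate 2 (4.57, 0.089), the Anxa2 call without MASH replicate 1 (0.79, 0.18) or MASH replicate 2 (0.40, 0.57), and the endothelial Sox4 call without MASH replicate 2 (1.19, 0.098). The endothelial Yap1 call was lost in 8 of 9 alternatives, among them RLE size factors in place of TMM (-0.43, adjusted p = 0.13).

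In chow the gaps were wider for the genes that hepatocyte nuclei gained in MASH. Stellate nuclei exceeded hepatocyte nuclei in Ccn2 (7.23), Sox4 (5.45), Anxa2 (5.24), Tead1 (1.68), Ccn1 (1.57) and Amotl2 (0.56) and were lower in Sox9 (-2.05), 7 of 10 genes against 48.7% of all genes. Endothelial nuclei exceeded them in Ccn2 (6.42), Sox4 (6.05), Anxa2 (3.05), Wwtr1 (1.92) and Amotl2 (0.54) and were lower in Sox9 (-1.28) and Yap1 (-0.67), 7 of 10 against 45.8%. The Sox9 and Yap1 differences in endothelial nuclei were not called without chow replicate 3 (-0.75, adjusted p = 0.13, and -0.48, 0.094). The Amotl2 calls held in 3 of 9 alternatives in stellate (0.37 to 0.78) and 1 of 9 in endothelial nuclei (0.35 to 0.64). Shares this close to the background say nothing particular about these genes.

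Hepatocytes differ along the lobule, so the nuclei of each library were ranked by a score of 7 pericentral minus 7 periportal genes and cut into 3 parts of equal size, of which the outer ones were compared. In chow, 6 of 9 genes tested differed between zones, against 22.6% of 13125 genes. Ccn1 (log2 1.80 ± 0.17), Anxa2 (1.82 ± 0.39), Amotl2 (1.10 ± 0.12) and Wwtr1 (0.50 ± 0.13) were higher in pericentral nuclei, and Sox9 (-1.94 ± 0.26) and Tead1 (-0.76 ± 0.15) were higher in periportal nuclei. Ccn1 was at 38.7, 14.4 and 7.81 CPM in pericentral and 8.12, 4.84 and 2.33 CPM in periportal nuclei of chow. Sox9 ran the other way, at 6.64, 8.78 and 35.2 CPM against 65.9, 27.8 and 82.2 CPM.

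**Figure D4:**
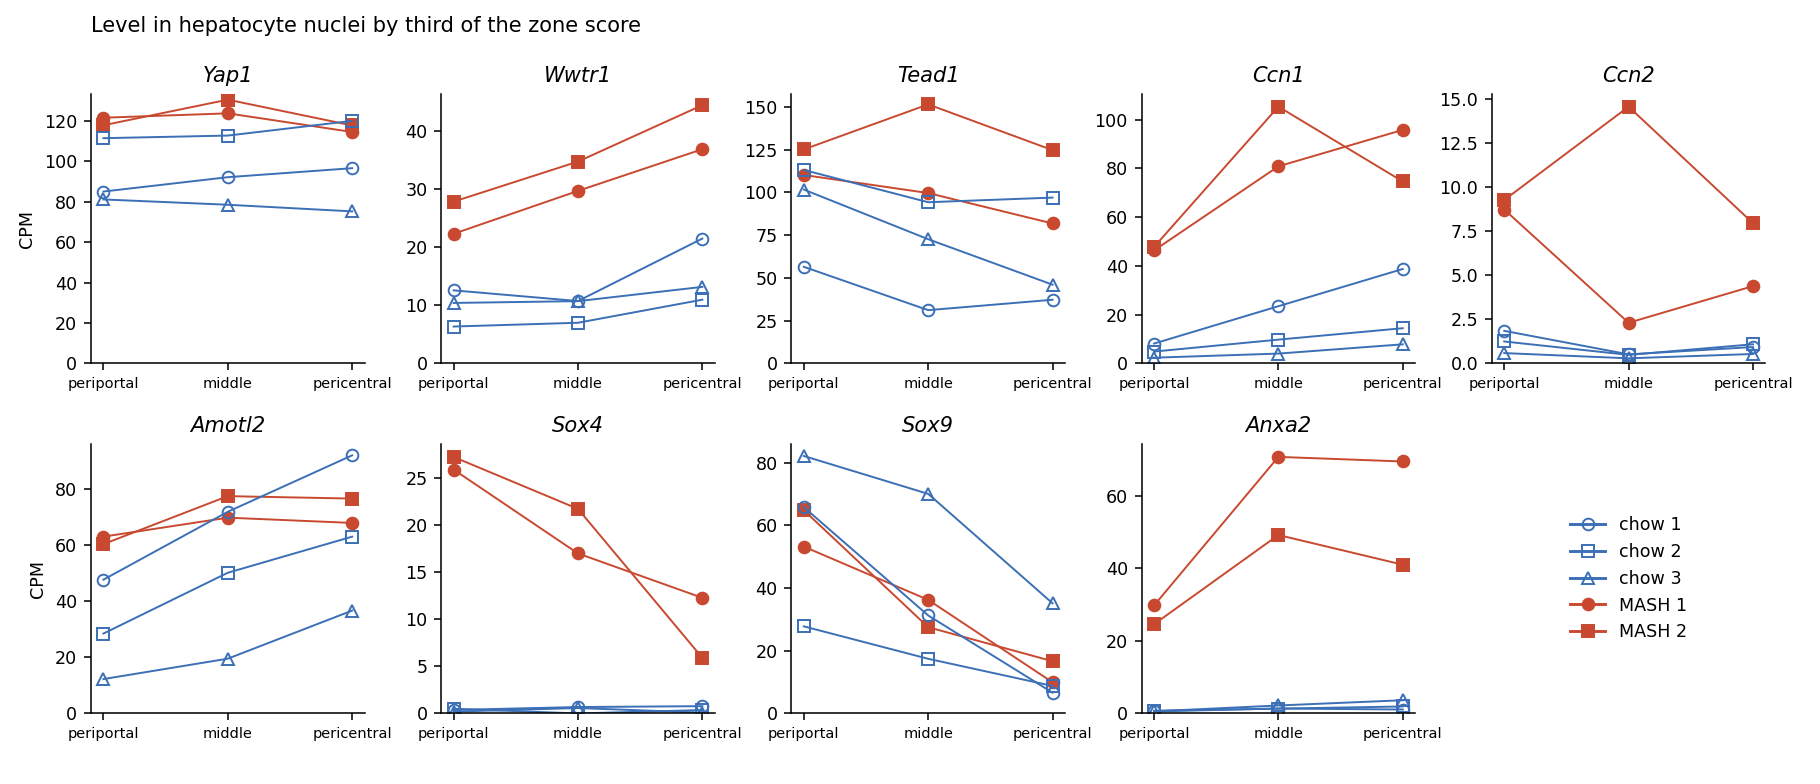
Level (CPM, linear axis from 0) of 9 of the 10 genes in the periportal, middle and pericentral part of hepatocyte nuclei, with a line for each of the 3 chow and 2 MASH libraries and Ankrd1 left out. Ccn1 is lower in the periportal than in the pericentral part of every library and Sox9 higher, while Sox4 falls from 25.9 and 27.2 CPM to 12.3 and 5.90 CPM in MASH and stays under 1 CPM in chow.

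In MASH 5 of 9 genes differed between zones, against 6.28% of all genes. Ccn1 (0.83 ± 0.14), Anxa2 (0.98 ± 0.17) and Wwtr1 (0.68 ± 0.16) were higher in the pericentral than in the periportal part. Sox9 (-2.17 ± 0.40) and Sox4 (-1.61 ± 0.28) were lower there. Sox4 reached 25.9 and 27.2 CPM in periportal, 16.98 and 21.7 CPM in middle and 12.3 and 5.90 CPM in pericentral nuclei. Anxa2 was at 29.8 and 24.6 CPM in periportal, 70.8 and 49.2 CPM in middle and 69.5 and 41.0 CPM in pericentral nuclei. Sox4 was thus highest in the periportal part, and Anxa2 was lowest there and highest in the middle part. Ccn1 was at 46.3 and 47.8 CPM in periportal, 80.9 and 105 CPM in middle and 95.8 and 74.6 CPM in pericentral nuclei. With 1 MASH library the calls thinned to 1 without MASH replicate 1 and 2 without MASH replicate 2, and without MASH replicate 2 Sox4 stood at -1.11 (adjusted p = 0.25). The zone difference changed with diet for Amotl2 alone (-0.89 ± 0.19, adjusted p = 0.039), against 1.81% of all genes, with Ccn1 just outside (-0.98 ± 0.22, adjusted p = 0.056).

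Whether the genes were found in the same MASH hepatocyte nuclei was tested by splitting the nuclei, each thinned to 2000 UMIs, by a UMI of 1 gene and comparing all other genes (8 splits, 64 tests of the 10 genes). Of these 1 passed: Sox4 was higher in nuclei with a Sox9 UMI (log2 1.72 ± 0.37, adjusted p = 0.0009). The reverse split gave 1.33 ± 0.41 for Sox9 in nuclei with a Sox4 UMI (adjusted p = 0.18). Both genes were found together in 6 and 13 nuclei of the MASH libraries, where independent detection would give 3.43 and 4.07. With 1 MASH library left, and no test, the difference was 2.33 in MASH replicate 2 alone and 0.88 in MASH replicate 1 alone. The call was absent among nuclei with no UMI of another class's gate genes, where fewer nuclei (826 of 1995 and 644 of 1848) remained. Those gate genes include Pkhd1 and Bicc1, so nuclei with a UMI of either duct gene were left out too. The part of duct RNA or of doublets in this pair was not tested.

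**Figure D5:**
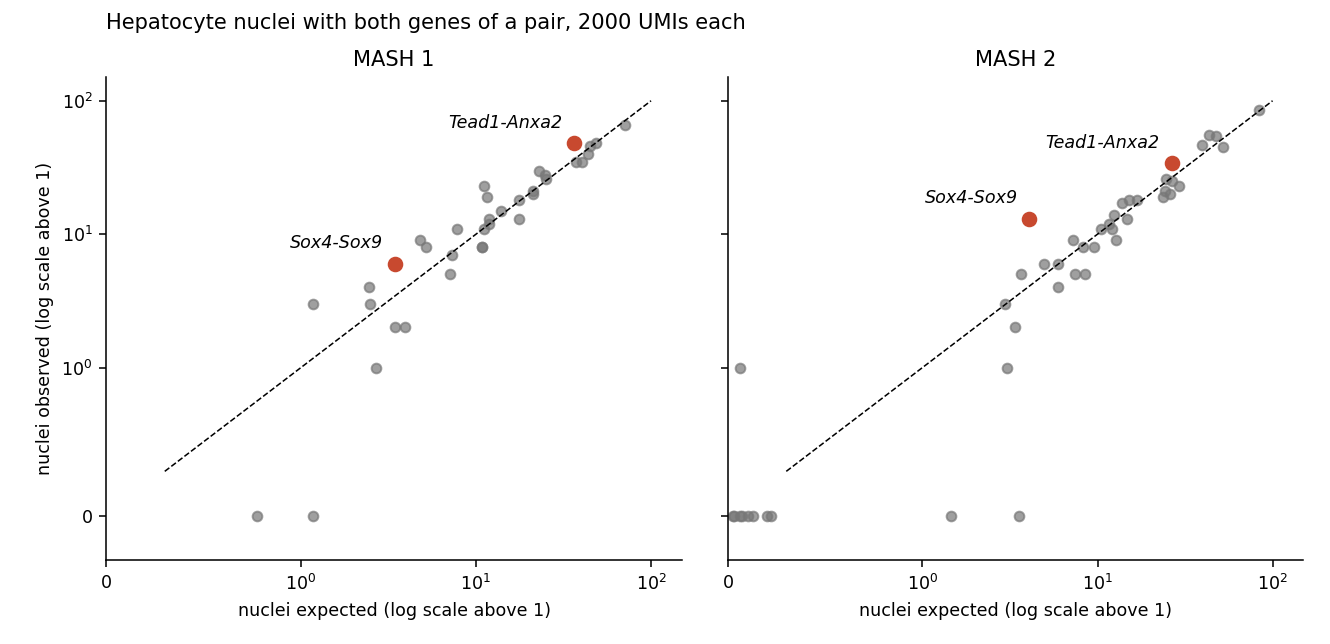
Number of hepatocyte nuclei in which both genes of a pair were found (y axis) against the number that independent detection would give (x axis), both on a log scale above 1, with a panel for each MASH library, a point for each pair with an expected number above 0, and a dashed line where both are equal. Sox4 with Sox9 lies above the line in both panels (6 against 3.43 and 13 against 4.07), as does Tead1 with Anxa2, and most points lie near it.

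No other pair was called in the thinned nuclei, and more calls were made without thinning. With counts this small, the absence of a call does not show that the genes were independent. Of 45 pairs, 25 were expected in at least 5 nuclei of both libraries, and their ratios of observed to expected ran from 0.588 to 2.08, with 8 pairs above 1 and 7 below 1 in both. Yap1 and Tead1 were found together in 66 and 86 nuclei against 71.0 and 83.4 expected, and Yap1 and Ccn1 in 46 and 47 against 44.7 and 39.4. Tead1 and Anxa2 were together in 48 and 34 nuclei against 36.3 and 26.5. Sox9 and Anxa2 were together in 8 and 5 nuclei against 10.8 and 8.5. These counts are small and are given as a description.

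Genes outside the set differed in some splits. The share of all genes called was 0.262% for Yap1, 0.0286% for Wwtr1, 0.0376% for Tead1, 0.388% for Ccn1, 0.16% for Amotl2, 0.492% for Sox4, 1.13% for Sox9 and 0.742% for Anxa2. Nuclei with a Sox4 UMI were higher in Bicc1 (2.88), which stellate nuclei also held, Spp1 (1.41) and Nrg1 (0.95). Those with a Sox9 UMI were higher in Spp1 (1.41), Krt8 (0.68) and Nrg1 (0.64). Themis, in contrast, was lower in nuclei with a Sox9 UMI (-1.59), with both found in 9 and 8 nuclei against 17.5 and 25.8 expected. Nuclei with an Anxa2 UMI were higher in Krt8 (1.16), S100a10 (0.88), which encodes the partner of annexin A2, Spp1 (0.77), Anxa7 (0.58), Klf6 (0.57) and Nrg1 (0.55). Nuclei with a Ccn1 UMI were higher in Krt8 (0.62), Jun (0.56), Nrg1 (0.52) and Klf6 (0.48), and no listed gene was called in the Yap1, Wwtr1, Tead1 and Amotl2 splits.

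Zone and nucleus quality moved with several splits. In the Sox9 split 7 of 7 periportal genes were higher and 4 of 7 pericentral genes lower, and in the Sox4 split 1 of 7 periportal genes was higher and 3 of 7 pericentral genes were lower. In the Anxa2 split 4 of 7 periportal genes were lower and 2 of 7 pericentral genes higher, and in the Ccn1 split 4 of 7 periportal genes were lower. Of the 7 pericentral genes 1 was lower in each of the Yap1, Tead1 and Amotl2 splits, and 1 periportal gene was lower in the Amotl2 split. Mitochondrially encoded genes were lower in the Yap1 and Amotl2 splits (10 of 13 each), 2 of 13 were higher in the Anxa2 split, and haemoglobin genes, a sign of blood RNA, were lower in the Yap1, Wwtr1, Ccn1, Sox4, Sox9 and Anxa2 splits (3 or 4 genes each), with 1 of 4 higher in the Amotl2 split. The part of zone and quality in the co-detection was not tested.

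The genes whose levels most resembled those of the set were ranked by Pearson's r of log2 CPM over the 17 class sums of at least 20 nuclei among 11729 genes, as a description, since sums of 1 library share their source. For Sox9 they were Atp1b1 (0.95), Pkhd1 (0.90), Chmp4c (0.88), Sorbs2 (0.87) and Map3k1 (0.87). For Sox4 they were Gramd1b (0.97), Zfp248 (0.96), Vsig10 (0.96), Rtn4 (0.96) and Pygb (0.95). Anxa2 was most like Mapt (0.95), Ephb2 (0.94) and S100a11 (0.94), and Yap1 most like Cep170b (0.92).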

How the data were processed

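Nuclei of chow (3 libraries) and MASH livers (2 libraries) were profiled with 10x 3′ chemistry, each library counting as 1 replicate. The deposited values were UMI counts per gene and barcode, made by the authors with Cell Ranger 8.0.1 on GRCm38 with intronic reads left out. The strand setting of the counting is not given in the sources used here, and Yap1, Wwtr1, Tead1, Ccn2, Sox4 and Anxa2 overlap a gene on the opposite strand whose reads could not be told apart without it.

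Barcodes with fewer than 300.0 genes were dropped, as were the top 0.8% per 1000 nuclei by Scrublet score (scanpy 1.11.5), because the automatic threshold marked almost none. Hepatocyte nuclei had at least 2000 UMIs and 1 Hnf4a UMI. Cholangiocyte nuclei had UMIs of Pkhd1 and Bicc1, and stellate, endothelial and macrophage nuclei of at least 2 of 6 gate genes, all without Hnf4a, and nuclei that passed more than 1 gate were left out. The counts were summed per library and class where at least 20 nuclei were present. They were tested with edgeR 4.0.16 (R 4.3.3; quasi-likelihood test, TMM, filterByExpr, Benjamini-Hochberg over all genes tested, called at an adjusted p under 0.05), and the SE was derived from the F statistic. Fits between classes, zones and splits held the library as a block. For shares and splits each hepatocyte nucleus was thinned to 2000 UMIs, and shares were compared by an exact permutation test (scipy 1.17.1). The edgeR step was tested on simulated data. Intervals, and the limit of 3 UMIs set by a count of 0, cover counting error only.

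All 10 genes are named in every class, and other genes come from lists written out with the design. These members and lists were chosen with earlier results of these data known. Alternatives were DESeq2 1.42.0, RLE size factors, other filters, gates, depths and doublet settings, a replicate block, q-values and each library left out. Plain library totals in place of TMM were added after seeing the data.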

Additional observations from a re-analysis of the deposited data

Results flagged for a closer look

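The diet difference (MASH minus chow, log2) was smaller in stellate than in hepatocyte nuclei for 4 genes, and the difference itself was tested in 1 edgeR model. For Anxa2 it was smaller by 4.66 (-4.66 ± 0.36, SE, adjusted p = 2.6e-09), and Anxa2 was already at 57.5 to 78.8 CPM in chow stellate nuclei. For Sox4 the value was -3.33 ± 0.47 (adjusted p = 5.0e-05), and without chow replicate 1, the stellate library with the highest chow level of Sox4, it was -2.46 (adjusted p = 0.069). Ccn2, the gene for CTGF, gave -2.74 ± 0.47 (adjusted p = 0.00045) and missed the threshold without the library block (-2.70, adjusted p = 0.088). Ccn1, the gene for CYR61, gave -1.50 ± 0.41 (adjusted p = 0.030), which was lost without chow replicate 3 (-0.84, adjusted p = 0.30), MASH replicate 1 (-1.48, 0.195) or MASH replicate 2 (-1.51, 0.32).

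Against endothelial nuclei the same comparison singled out 3 genes. Sox4 gave -4.34 ± 0.45 (adjusted p = 1.1e-06) and Anxa2 -2.89 ± 0.48 (adjusted p = 0.00038). Wwtr1, the gene for TAZ, gave -1.55 ± 0.38 (adjusted p = 0.015), and its call was lost without chow replicate 3 (-1.09, adjusted p = 0.13), MASH replicate 1 (-1.47, 0.27) or MASH replicate 2 (-1.52, 0.35).

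The difference between pericentral and periportal hepatocyte nuclei was smaller in MASH than in chow for Amotl2, an angiomotin that restrains YAP (-0.89 ± 0.19, adjusted p = 0.039). The call was lost without chow replicate 2, without either MASH replicate and among nuclei with no UMI of another class's gate genes. Groups of 3 and 2 libraries are too small for a test of single outlying libraries.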

How the results depend on the processing

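Limits. With 2 MASH libraries, leaving out either left an arm of 1 library that was assumed to vary like the others. The causes of the changes below were not tested. The diet test in cholangiocyte nuclei could not be made under the main or the other gate, for want of chow nuclei. Among single genes, 784 values kept their direction and side of the threshold, 76 lost and 13 gained a call, 26 changed sign and 2 moved.

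With each library left out in turn, the hepatocyte diet fit called 2 to 5 of the 10 genes (5 with all) and 125 to 2494 genes in all (1754 with all). The stellate fit called 0 to 1 of the 10 and 17 to 140 genes (0 and 104), and the endothelial fit 0 to 2 and 9 to 148 (1 and 75). Between classes the calls were 4 to 5 (cholangiocyte), 3 to 5 (stellate) and 1 to 3 (endothelial) in MASH and 6 to 7 and 4 to 7 (stellate, endothelial) in chow. For the change with diet they were 3 to 5 (stellate) and 2 to 4 (endothelial). Between zones they were 5 to 6 in chow, 1 to 5 in MASH and 0 to 1 for the change with diet.

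In hepatocyte nuclei DESeq2 called 2982 genes, Storey q-values 3424 and nuclei with no UMI of another class 1121. In stellate nuclei DESeq2 called 191 genes, plain totals 163, the stricter gate 52 and no filter on low counts 615, with 1 of the 10. In endothelial nuclei DESeq2 called 147 genes, no filter 480 with 3 of the 10, plain totals 186 with 2 of the 10, and q-values, kept doublets and the other gate each 2 of the 10. Without the library block 2 of the 10 differed between stellate and hepatocyte nuclei in diet change in place of 4. Zones in MASH gave 3 of 9 with 2 zones in place of 3 and 3 without UMIs of other classes. The change of zones with diet gave 2 with 2 zones, 3 without the filter and 0 without UMIs of other classes. Co-detection gave 6 calls unthinned, 2 with doublets kept, and 0 without UMIs of other classes or over all 5 libraries. RLE size factors moved the median gene of the MASH cholangiocyte to hepatocyte comparison from -0.02 to 0.10.

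Only uncalled differences changed sign. In hepatocyte nuclei Yap1 was at -0.0096 without the filter and -0.082 to 0.17 with libraries left out, Tead1 at -0.011 to 0.59 and Sox9 at -0.90 to 0.26. In stellate nuclei Yap1 ran from -0.19 to 0.0059, Wwtr1 from -0.0064 to 0.74, Ccn2 from -0.49 to 0.86, Anxa2 from -0.12 to 0.21 and Amotl2 from -0.20 to 0.15 (0.0081 without the filter). In endothelial nuclei Wwtr1 ran from -0.60 to 0.22 and Amotl2 from -0.24 to 0.26 (0.022 with plain totals, 0.049 with doublets kept). Between chow zones Yap1 ran from -0.094 to 0.051 and Sox4 from -0.70 to 0.24 (0.031 with doublets kept, 0.89 without UMIs of other classes). The Sox9 share difference of -0.11 percentage points became 0.12 unthinned, 0.036 at 1000 UMIs and 0.062 with doublets kept, and ran from -1.48 to 1.59 with libraries left out.

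The replicate numbers were not taken as pairs, since the labels name nothing shared between same-numbered libraries. Deviations of same-numbered libraries from their group means gave r of -0.11 and -0.20 over 2 pairs. With 2 MASH libraries these deviations mirror each other, so the values cannot decide whether libraries were paired. A crossed pairing was not run, as the groups hold 3 and 2 libraries. With the number as a replicate block, which drops chow replicate 3, the hepatocyte fit called 1985 genes and 5 of the 10, the stellate fit 150 genes and the endothelial fit 188 genes and 3 of the 10. Sox9 in hepatocyte nuclei was then at 0.31 and Wwtr1 in endothelial nuclei at 0.29.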
